A study of Mus musculus with 6 samples.

Results

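The 234 megabase bins described here are the stretches of mouse chromosomes 1 to 19 in which CpG methylation of G1 cells exceeded that of G2/M cells by the widest margin. They were chosen by the measured values themselves. Each autosome was divided into 1-Mb bins, bins with 50 or more 100-CpG windows were kept, and the members are the 10% of bins with the highest mean of G1 minus G2/M over their windows, averaged over 3 matched pairs of libraries. Of 2407 autosomal bins, 2343 passed the minimum and 64, with 1491 windows, did not. The 234 members hold 21806 of the 343289 windows of the tested bins.

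The libraries came from E14TG2a, a mouse embryonic stem cell (mESC) line of the 129/Ola strain, grown in serum with LIF on gelatin. Cells were labelled with EdU, a thymidine analogue taken up during DNA synthesis, fixed, and sorted on EdU and DNA content into G1 and G2/M populations, with 3 biological replicates of each. No other treatment or genotype distinguishes the groups, all 6 libraries come from 1 cell line, and gene expression, which would show the identity of the cells, was not measured in these libraries. Enzymatic methyl-seq (EM-seq) reads 5-methylcytosine and 5-hydroxymethylcytosine together, so both count as methylation throughout. The deposited values are percentages without read counts, so the depth behind each value is unknown.

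As background, replication of a methylated CpG leaves the new strand unmethylated, and the maintenance methyltransferase DNMT1, recruited with UHRF1, restores the mark afterwards. Cells in G2/M have completed replication more recently than most cells in G1. Large AT-rich, gene-poor stretches of mammalian chromosomes tend to replicate late in S phase and to lie at the nuclear lamina. The replication timing of the bins was not analysed here.

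The sequence of these regions is shown first, because the members differ from other bins in CpG density. Below are the first 300 bases, on the plus strand of GRCm38, of the window of median length in the 2 members with the highest difference and in the 2 tested bins with the lowest, with each CpG in capitals.
Highest, chr16:54506349-54506648: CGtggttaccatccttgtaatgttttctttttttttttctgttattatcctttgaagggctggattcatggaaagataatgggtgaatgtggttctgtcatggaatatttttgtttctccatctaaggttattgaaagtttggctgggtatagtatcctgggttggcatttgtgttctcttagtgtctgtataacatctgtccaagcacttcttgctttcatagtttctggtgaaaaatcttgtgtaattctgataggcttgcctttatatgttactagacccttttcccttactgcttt
Second highest, chr14:90476236-90476535: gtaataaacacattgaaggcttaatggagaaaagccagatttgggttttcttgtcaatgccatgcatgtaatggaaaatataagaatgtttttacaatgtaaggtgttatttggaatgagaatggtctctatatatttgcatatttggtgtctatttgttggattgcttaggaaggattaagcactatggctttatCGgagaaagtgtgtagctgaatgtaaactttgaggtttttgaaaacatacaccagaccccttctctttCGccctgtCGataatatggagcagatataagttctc
Lowest, chr16:17137534-17137833: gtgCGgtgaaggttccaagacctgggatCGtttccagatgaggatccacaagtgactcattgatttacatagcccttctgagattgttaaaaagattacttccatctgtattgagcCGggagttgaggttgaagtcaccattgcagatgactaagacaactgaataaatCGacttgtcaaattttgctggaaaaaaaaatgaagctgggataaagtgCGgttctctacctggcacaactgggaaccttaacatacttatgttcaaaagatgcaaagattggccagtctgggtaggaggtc
Second lowest, chr6:120082044-120082343: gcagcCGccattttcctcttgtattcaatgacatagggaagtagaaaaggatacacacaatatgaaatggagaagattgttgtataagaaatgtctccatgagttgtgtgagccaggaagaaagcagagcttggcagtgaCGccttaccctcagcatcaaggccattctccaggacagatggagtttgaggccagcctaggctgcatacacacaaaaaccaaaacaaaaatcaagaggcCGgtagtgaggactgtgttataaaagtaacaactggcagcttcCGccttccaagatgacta
The stretches from the members hold 1 and 3 CpGs, and those from the lowest bins hold 5 and 4. A window can start on the C or on the G of a CpG, and a CpG whose G opens the window is not counted. None of the 4 overlaps an annotated gene except the lowest, which lies in an exon of the processed pseudogene Gm6440. Over all windows, the first 300 bases held 2.84 CpGs on average in members and 4.59 in other bins. A window spanned a median of 10483 bp in members and 5485 bp in other bins, with a median of 51 CpG dinucleotides of the reference in both. Whether the 100 CpGs of a window count the cytosines of both strands is not given in the sources used here.

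Single windows say little about their bin. The window shown for the highest member was lower in G1, by a mean of -5.15 percentage points, although its bin differed by 4.04, and the window shown for the lowest bin was higher in G1 by 17.2 although its bin differed by -2.11. Window differences within members had an SD of 4.70 percentage points, and the standard error of a member's mean over its windows had a median of 0.491. G1 was above G2/M in 73.7% of member windows and in 55.8% of windows of other bins, against 57.0% of all windows in tested bins. These shares come from the contrast that chose the members and are descriptive.

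The members' differences ran from 2.48 to 4.04 percentage points, with a median of 2.82, and all tested bins had a median of 1.03. The 2 bins just inside the threshold, at 89 Mb of chromosome 14 and 101 Mb of chromosome 8, differed by 2.4825 and 2.4793. The 2 just outside, at 31 Mb of chromosome 1 and 86 Mb of chromosome 16, differed by 2.4737 and 2.4734, so the boundary passes through a continuum. All 234 members were higher in G1 in each of the 3 matched pairs, beside 61.2% of all tested bins, a count that follows largely from how they were chosen.

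Both groups of bins were methylated to a similar level. Taking replicates 1, 2 and 3 in turn, the G1 libraries averaged 64.6%, 61.4% and 69.2% over the members, while the G2/M libraries averaged 61.1%, 58.6% and 66.9%. Over other bins the averages were 63.3%, 61.0% and 69.3% for G1, then 62.0%, 60.3% and 68.6% for G2/M. Replicate 3 was the highest library of both phases, the phases overlapped, and no bin had every G1 library above every G2/M library. In G1 the members lay 1.22, 0.462 and -0.0985 percentage points from the other bins, and in G2/M they lay -0.899, -1.69 and -1.76 from them. In G1 the members lay on both sides of the other bins, and in G2/M they were below them in all 3 replicates, as a description of values that chose them. The tested bins were also split into 5 classes by number of windows. In the class with fewest, non-members lay -0.145, -0.653 and -1.19 from other bins in G1 and -1.01, -1.62 and -1.81 in G2/M. The lower G2/M level was thus not particular to the members.

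**Figure D1:**
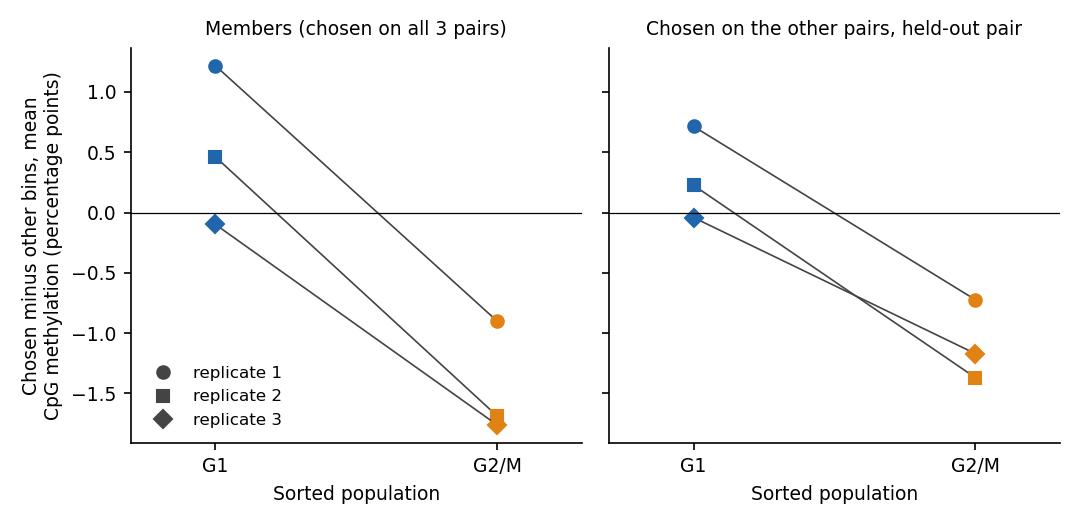
Mean CpG methylation of the chosen bins minus that of all other bins, in percentage points, for each library (markers give the replicate, lines join matched libraries). Left, members chosen on all 3 pairs. Right, bins chosen on the other pairs and read in the held-out pair, where the G1 libraries lie from -0.0414 to 0.714 and the G2/M libraries from -1.37 to -0.722.

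Whether the excess returns in cultures that had no part in the choice was tested by choosing the highest 10% of bins on 2 pairs and reading them in the third. The chosen bins differed by 2.81 percentage points in pair 1, 2.33 in pair 2 and 1.87 in pair 3, and the other bins by 1.37, 0.738 and 0.743. The chosen bins were higher in G1 in 234, 232 and 231 of 234 cases, where 86.9%, 73.1% and 79.0% of all tested bins were. Chosen bins therefore exceeded the others in 3 of 3 held-out pairs, by 1.44, 1.59 and 1.13 percentage points, a mean of 1.39 ± 0.237 (SD, n = 3). In the held-out libraries, chosen bins stood 0.300 ± 0.383 (SD, n = 3) from other bins in G1, whereas for G2/M the value was -1.09 ± 0.331 (SD, n = 3), without overlap between the phases. A two-sided exact permutation test over the 20 labelings of the 6 libraries gave p = 0.10, the smallest it can give, and the test blocked by pair, an exact sign-flip test, gave p = 0.25, also its smallest. Without replicate 3, whose libraries were the highest, the mean was 1.44. The 3 choices share libraries, so the held-out values are not fully independent of each other.

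**Figure D2:**
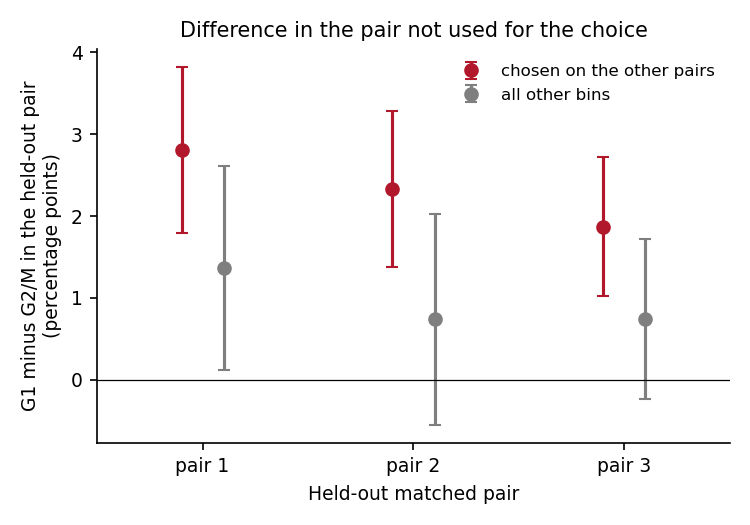
G1 minus G2/M methylation in each held-out pair, in percentage points, for bins chosen on the other pairs and for all other bins (points are means over bins and bars are SD over bins). The chosen bins have the higher mean in each of the 3 pairs, at 2.81, 2.33 and 1.87.

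Which single bins were chosen was less stable than the group. Of the 234 bins chosen on 2 pairs, 86, 85 and 87 (36.8%, 36.3% and 37.2%) were in the highest 10% of the held-out pair. By definition, 10% of all tested bins are. In all 3 sets, 99 bins were chosen. All 99 are members, which follows largely from the pairs that the sets and the rule share. Tested bin by bin with limma and Benjamini-Hochberg adjustment over all bins, no bin passed an adjusted p of 0.05 without the replicate block (0.00% of bins, and 0 at an unadjusted p of 0.05), and the SD between replicates of a phase had a median over members of 3.96 percentage points in G1 and 4.24 in G2/M. With the replicate number as a block, 1092 bins passed (46.6%). G1 was the higher phase in 1076 and G2/M in 16, and all 234 members were among the 1076. With each library centred on its mean over bins and no block, 57 of 2343 bins passed. G1 was the higher phase in 37, all of them members, and G2/M in 20. The rule used this contrast, so these counts describe the members and are no evidence about them.

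Members were sparse in CpGs. They held a median of 5.10 CpGs per kb against 8.55 in other bins, a GC content of 37.4% against 42.2%, and 90 windows against 149. Over all 2343 bins the difference had a Spearman correlation of -0.768 with CpGs per kb and of -0.764 with GC content, as a description over bins that share the same 6 libraries. Among members the correlation with CpGs per kb was -0.103. Members were cut on the difference itself and vary little in density, with quartiles of 4.74 and 5.66 CpGs per kb, so this value is not comparable with that over all bins. With bins split into 5 classes by number of windows, the members numbered 157, 62, 11, 4 and 0 from the class with fewest windows to that with most, and the mean difference of all bins went from 2.10 through 1.58, 1.05 and 0.561 to 0.122 percentage points. The order held in each matched pair, and in the class with most windows pair 2 was lower in G1, at -0.261.

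**Figure D3:**
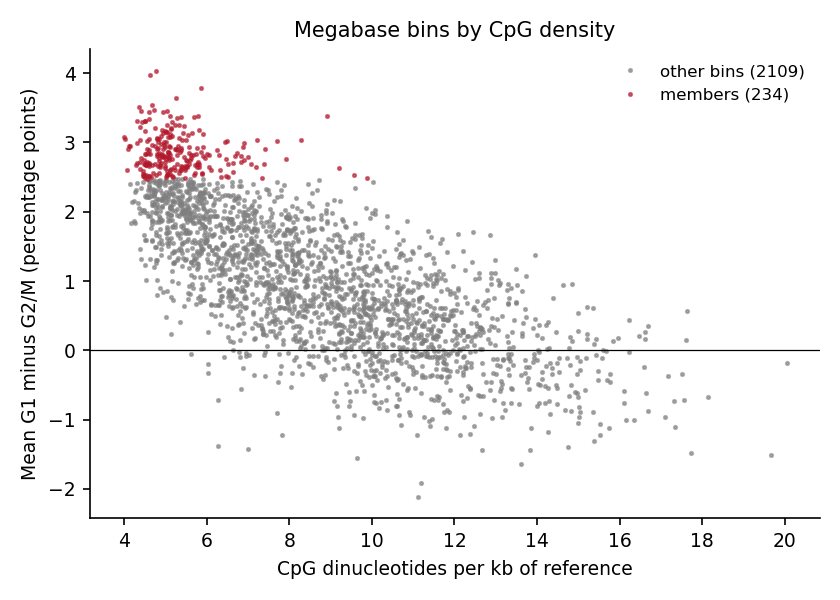
Mean G1 minus G2/M methylation of each tested bin, in percentage points, against CpG dinucleotides per kb of reference sequence (members in red, other bins in grey). Members lie above 2.47 on the vertical axis by construction, and their median density is 5.10 against 8.55 in other bins.

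**Figure D4:**
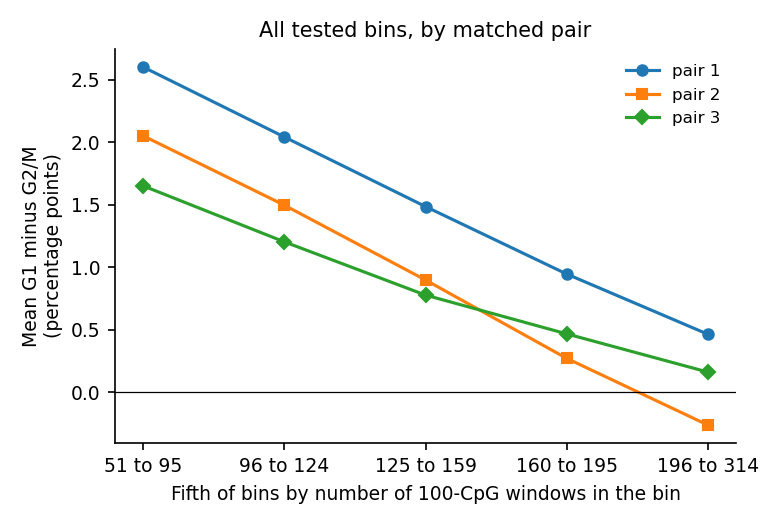
Mean G1 minus G2/M methylation of all tested bins, in percentage points, in 5 classes by number of windows per bin, with a line for each matched pair. In every pair the mean is highest in the class with fewest windows, at 2.60, 2.05 and 1.65, and lowest in the class with most.

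Part of the held-out difference remained in comparisons that narrowed or adjusted for density, although density was not held equal in them. The class with fewest windows ran from 3.99 to 16.7 CpGs per kb, with quartiles of 4.74 and 5.44. Among the class with fewest windows, chosen bins exceeded the others in the held-out pair by 0.464, 0.452 and 0.376 percentage points, a mean of 0.431 ± 0.0474 (SD, n = 3; exact permutation p = 0.20). Among the 5 classes by CpGs per kb, the lowest gave 0.272 ± 0.0134 (SD, n = 3; exact permutation p = 0.20), and after a straight line on CpGs per kb was removed from every pair the mean was 0.607 ± 0.0961 (SD, n = 3; exact sign-flip p = 0.25). Each was above 0 in 3 of 3 pairs and under the 1.39 found without regard to density. These comparisons were chosen after seeing the data.

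Members were poor in genes. Protein-coding genes covered a median of 11.5% of a member and 45.3% of another bin, and 104 of 234 members (44.4%) held no protein-coding start, against 7.97% of other bins. Bins with as few windows that were not members resembled them, with a cover of 12.4% and no start in 33.4%. Soft-masked repeats took a median of 39.1% of a member, 43.9% of those sparse non-members and 30.8% of all other bins. Position along the chromosome had a Spearman correlation of -0.0734 with the difference.

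Windows of most kinds took part. In held-out pairs, windows of chosen bins differed by 2.37 ± 0.460 percentage points (SD, n = 3 pairs) outside protein-coding genes, by 2.26 ± 0.458 where the window centre lay in one, and by 1.50 ± 0.443 where the window held a protein-coding start. In other bins the same classes differed by 0.984, 0.533 and 0.375. By methylation level, windows from 60% to 80%, which make up 73.3% of member windows, differed by 2.42 ± 0.500, those from 40% to 60% by 2.11 ± 0.376, and the few under 20% by 0.361 ± 0.414. The distribution of member windows was higher in G1 at both ends, as a description, with the 10th percentile at 53.3%, 50.1% and 58.1% for G1 against 50.7%, 48.2% and 56.0% for G2/M, and the 90th at 76.8%, 73.6% and 81.2% against 72.5%, 70.2% and 78.8%.

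Of the 10 highest members, 5 held no named protein-coding gene. The highest, at 54 Mb of chromosome 16, had no protein-coding gene at all and read 63.4%, 61.1% and 68.7% in G1, against 59.5%, 56.7% and 64.9% in G2/M. The fourth, at 13 Mb of chromosome 19, held 35 named genes, among them the olfactory receptor genes Olfr1501, Olfr1489 and Olfr1459, and differed by 3.63, 3.68 and 3.60 percentage points in pairs 1, 2 and 3. Other members among the 10 carried parts of single genes. Agbl1, which encodes a carboxypeptidase of tubulin, differed over its 81 windows by 2.87 percentage points, Khdrbs3, an RNA-binding protein, over 31 windows by 3.56, and Cdh18, a cadherin, over 84 windows by 2.76. Fat4, an atypical cadherin, reached into the third highest member with its end and differed by 2.85 over 21 windows. The named bins and runs were ranked on the same 3 pairs, so the values of these bins, runs and their genes are descriptive. Gene values here and below cover the whole gene, also where it lies outside the member. The part inside the named member was 124699 of 894812 bp for Agbl1 and 101212 of 172792 bp for Khdrbs3. For Cdh18 it was 474419 of 925397 bp, and for Fat4 11986 of 125046 bp.

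Members often lay beside each other, and formed 163 runs, of which 116 were single bins and the longest was 6. A member neighboured 118 of 234 members (50.4%) and 14.1% of other bins. The longest run, from 66 to 72 Mb of chromosome 16, holds Cadm2, a cell adhesion molecule of synapses, which read 61.5%, 58.3% and 65.1% in G1, against 58.3%, 55.6% and 62.4% in G2/M, over 104 windows. Gbe1, the glycogen branching enzyme, lies in the same run and differed by 2.97, 3.18 and 0.689 percentage points. The run of 5 bins from 96 to 101 Mb of chromosome 2 holds Lrrc4c, a synaptic adhesion protein, which differed by 4.43, 2.32 and 2.08 over 111 windows. The run of 4 on chromosome 10 holds Mgat4c, which differed by 3.06, 2.93 and 2.36 over 66 windows. The run of 4 on chromosome 17 holds 410356 of the 640786 bp of Cntnap5c. Over the 47 windows of the whole gene, Cntnap5c differed by 2.74, 1.74 and 0.135. Pcdh20, a protocadherin in the run of 3 from 88 to 91 Mb of chromosome 14, has 3 windows and differed by 4.56, 7.15 and 0.156. The remaining genes among the 3 of longest overlap in each of these runs, Speer2, Pdzph1, Nudt12, Lrriq1 and Slc6a15, have 2 to 21 windows each, and Speer2, with 2, differed by -6.97, 10.8 and 7.77, so single short genes scatter widely.

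The neighbours of chosen bins, which were not themselves chosen, were read in the held-out pair too. They differed by 2.12, 1.59 and 1.27 percentage points, and bins further off by 1.23, 0.592 and 0.648. The neighbours were higher in 3 of 3 pairs. The neighbours were also sparser, with medians of 6.39, 6.28 and 6.28 CpGs per kb against 9.14, 9.11 and 9.12 further off, and the part of density in this was not tested.

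Gene lists fell unevenly in the members. Of 19881 protein-coding genes in tested bins, 455 (2.29%) had their centre in a member. Of 87 neural adhesion and synapse genes, 31 (35.6%) did, among them Robo2 and Dcc, which guide axons, Nrxn3, a presynaptic adhesion protein, Grik2, a glutamate receptor subunit, and Cdh8, Cdh10 and Cdh18, which are cadherins. Of 1057 olfactory receptor genes, 120 (11.4%) lay in members, and of 267 vomeronasal receptor genes, 20 (7.49%). Of 214 genes longer than 500 kb, 39 (18.2%) did. Most of the 31 neural genes in members are also among these 39, including Robo2, Dcc, Nrxn3, Grik2 and Cdh18. The 2 shares are therefore not separate observations, and the part of gene length in them was not tested. No member held any of 23 pluripotency genes, 10 DNA methylation genes, 91 ribosomal protein genes or 39 Hox genes. At the 2.29% share of all protein-coding genes, lists of 10 to 91 genes would hold few or none, so these zeros say little. Of 356 Zfp genes, 2 (0.562%), Zfp317 and Zfp804a, lay in members. These are counts over genes that share bins, not tests.

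**Figure D5:**
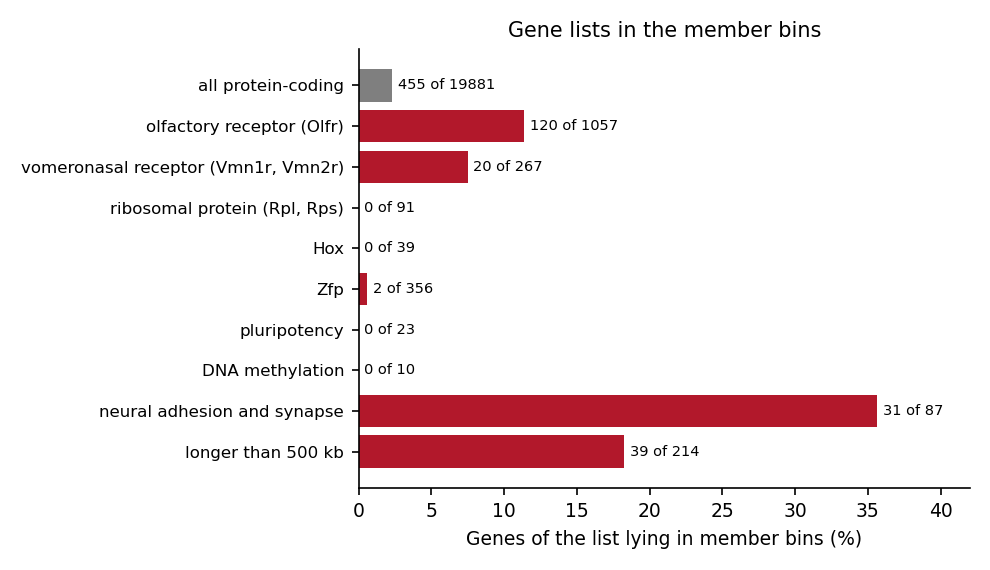
Share of the genes of each list, in percent of those in tested bins, whose centre lies in a member bin (bars, with counts beside them; grey for all protein-coding genes). Neural adhesion and synapse genes stand at 35.6% and all protein-coding genes at 2.29%.

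By chromosome, members made up 17.4% of bins on chromosome 16, 16.2% on chromosome 14 and 15.4% on chromosome 3, against 9.99% of all tested bins. They made up 3.42% on chromosome 13, 3.45% on chromosome 19 and 4.13% on chromosome 9. Chromosomes 16, 14 and 3 had 7.37, 7.47 and 7.12 CpGs per kb. Chromosomes 13, 19 and 9 had 8.07, 9.36 and 8.78, and the part of density in these shares was not tested. A few members were not sparse, and those described here were chosen after their values were seen. The member with most windows, 187, at 117 Mb of chromosome 9, has 9.88 CpGs per kb, lies largely in Rbms3, which encodes an RNA-binding protein, and differed by 2.37, 3.04 and 2.04 percentage points. A member at 87 Mb of chromosome 15, with 174 windows, holds Fam19a5 and differed by 2.37, 3.17 and 2.04. In the other direction, 4 bins with few windows were lower in G1 in every pair. They lie at 120 Mb of chromosome 6, 3 Mb of chromosome 7, 66 Mb of chromosome 13 and 177 Mb of chromosome 2, with mean differences from -1.91 to -1.39 percentage points. Those on chromosomes 6 and 7 hold 11.2 and 9.64 CpGs per kb, so their few windows do not come from few CpGs.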

How the data were processed

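CpG methylation was profiled by EM-seq in 3 G1 and 3 G2/M libraries of sorted mESCs. The authors trimmed reads with Trim Galore 0.6.4, aligned them to GRCm38/mm10 with Bismark 0.22.1 and Bowtie2, and deposited the percentage of methylation per 100-CpG window and library. No coverage is in the table, so no interval or detection limit was computed.

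Windows were averaged per bin and library. Gene models came from GENCODE vM21 and sequence from the RefSeq copy of GRCm38, and 99.6% of windows start at a CpG of that build. Deviations of same-numbered libraries from their phase means correlated over bins at 0.456, 0.244 and 0.406, so replicate numbers were taken to pair libraries. Held-out values were compared by exact permutation and sign-flip tests, and bins by limma 3.58.1 in R 4.3.3 (trend, Benjamini-Hochberg, threshold 0.05), tested on simulated data. Other steps ran in Python 3.11.15 (pandas 2.3.3, numpy 2.4.6, scipy 1.17.1).

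The members, gene lists and tests were chosen with earlier results of these data known. Named bins are the 10 highest members, 2 on each side of the threshold and the 5 longest runs (ties by summed difference), with up to 3 protein-coding genes of longest overlap in each, leaving out Gm and Rik symbols. The CpG-rich members and the bins with few windows and low values were added after their values were seen. Alternatives changed bin size, minimum, summary, window filter, share of bins, scale, centring, block and libraries. Spiked-in controls were not analysed here.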

Additional observations from a re-analysis of the deposited data

How the results depend on the processing

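The held-out difference between chosen and other bins, 1.39 percentage points, was above 0 in every held-out pair under all 18 alternatives. Under the planned ones that kept all libraries it stayed from 1.26 to 1.42, and leaving out each replicate pair in turn gave 1.21 to 1.44. It was 1.38 without windows at 0% in any library and 1.34 with pairs centred on each chromosome. Restricting by number of windows or by CpG density, or adjusting for density, lowered it most. It was 0.431 among bins with the fewest windows, 0.272 among those with the lowest CpGs per kb and 0.607 as residuals from CpGs per kb. These 5 were chosen after seeing the data. The exact permutation test cannot go below 0.10 here, so p-values say nothing about stability.

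The count of bins passing limma was 0 without a block and 1092 with the replicate block. It was 57 with centred libraries, with G1 the higher phase in 37 and G2/M in 20. With centred libraries and the block it was 689, with G1 the higher phase in 379 and G2/M in 310. It stayed at 0 on the log2 ratio scale, under the minimum of 100 windows, for windows with mean methylation from 20% to 80%, and when each library was left out in turn (0 to 0).

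With each library centred, 221 of the 234 members kept all 3 pairs above 0. Of the members, 179 were chosen again with medians, 193 with windows weighted by length, 222 with windows from 20% to 80%, 56 under the minimum of 100 windows, which only 56 members pass, and 122 as residuals from CpGs per kb. Leaving out each replicate pair or library kept 167 to 193.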

Other observations

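Chromosome X was outside the rule that chose the bins. Of its 149 bins with 50 or more windows, 33 (22.2%) were at or above the lowest member value, and the 149 bins had a median of 82 windows. Of all tested autosomal bins, 9.99% were. In the autosomal class with fewest windows, 51 to 95, 157 of 480 (32.7%) were. X bins past the autosomal limit in the other pairs differed in the held-out pair by 2.60, 2.13 and 1.64 percentage points, and the other X bins by 1.85, 1.35 and 1.14.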
